A study of Mus musculus with 12 samples.

Results

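The small leucine-rich proteoglycans described here were 10 genes, Omd, Ogn, Aspn, Lum, Dcn, Kera, Fmod, Prelp, Bgn and Chad, of 16017 genes that had a symbol on the array. The family was selected on the responses of Omd and Lum themselves, since the ratio of Omd was strongly lowered by MAA and that of Lum turned from below to above control. The ratios of Omd and Lum are therefore given as a description without a test, and tests were run on the other 8 members. The 10 genes had 11 of 41174 probes, each with 1 spot per array, and Prelp alone had a pair of probes.

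These proteins carry a core of leucine-rich repeats and are secreted into the extracellular matrix, where many of them bind collagen fibrils and influence how thick and how regular the fibrils become. Decorin, biglycan and asporin are close relatives, lumican, fibromodulin, PRELP, keratocan and osteomodulin form another class, and mimecan (Ogn) and chondroadherin stand apart from both. Several members also bind growth factors such as TGF-beta or receptors on the cell surface.

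TM3 is a Leydig cell line from the testis of immature Balb/c mice. Cells were exposed to methoxyacetic acid (MAA), the active metabolite of ethylene glycol monomethyl ether, at 1 mM or 5 mM for 3, 8 or 24 h, and their RNA was compared with that of untreated cells kept in culture medium for the same time. Each of the 6 conditions had 2 two-color arrays, each with RNA pooled from 3 treated cultures, and MAA-treated RNA carried the green dye on replicate 1 and the red dye on replicate 2. A response is the log2 ratio of MAA to control signal on an array, so that 0 is no difference. P-values of responses thus measure the spread between the arrays of a condition, which differ in pool, dye and slide together, for 1 cell line. The 1 mM and 5 mM arrays of a time may share control cultures, and fewer expressing cells cannot be told apart from less RNA per cell.

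Over the 12 arrays, 62.2% to 69.3% of probes were well above background in the MAA channel and 61.5% to 70.5% in the control channel, by the flag of the scanner software. Over probes detected on both arrays of a condition, the ratios of the pair correlated at 0.690, 0.832 and 0.836 at 5 mM for 3, 8 and 24 h and at 0.154, 0.358 and 0.595 at 1 mM. Of 10 Leydig cell markers, 5 were well above background in all 12 control channels, including Star, Cyp17a1 and Insl3, and 4 were so in none, namely Cyp11a1, Hsd3b1, Hsd3b6 and the LH receptor gene Lhcgr. Of 8 markers of peritubular myoid cells or fibroblasts, 5 were well above background in all 12 control channels, including Pdgfra and Acta2, and only Thy1 was so in none. The summed signal of these 8 ranged from 258476 to 377587 in control and from 188771 to 323248 in MAA channels, and its part in the responses was not tested. The brightest of the 8 were Col1a1 and Col3a1, at control levels of 16.7 to 17.3 and 16.3 to 17.5 (log2). Col3a1 was itself called down at 8 h of 5 mM. The summed signal of the Leydig cell markers was 12790 to 15103 in control and 13193 to 17230 in MAA channels. The brightest of these 10 were Scarb1 and Fdx1, at control levels of 12.1 to 12.8 and 12.8 to 13.1 (log2). Star, Cyp17a1 and Insl3 were dimmer, at 6.13 to 6.89, 5.86 to 6.66 and 7.94 to 9.43, so that the sum says little about them. Chondrocytes or osteoblasts, where several members are abundant, had 7 measured markers. Of these, Col2a1, Runx2 and Sox9 were well above background in all 12 control channels and Ibsp in none. Acan was so in 9, Sp7 in 8 and Comp in 5. The summed signal of the 7 was 21854 to 41479 in control and 12227 to 38309 in MAA channels, and its part was likewise not tested. The brightest of these 7 were Col2a1 and Runx2, at control levels of 13.6 to 14.9 and 13.2 to 13.4 (log2), and Col2a1 was called down at 8 h of 5 mM. Among the members, Ogn, Dcn, Fmod, Bgn, Chad, Lum and, on 1 of its probes, Prelp were well above background in both channels of all 12 arrays. Omd was so in 12 control and 10 MAA channels, Aspn in 4 and 2, and Kera in 2 and 2.

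Osteomodulin (Omd), a keratan sulfate proteoglycan best known from bone, had the lowest mean ratio of the 10 members at each time of 5 mM. At 5 mM its log2 ratio was -1.54 on replicate 1 and -1.87 on replicate 2 at 3 h, -5.76 and -3.94 at 8 h, and -2.73 and -3.23 at 24 h. All 6 arrays were below 0, and the 8 h arrays lay below those of both other times. The means were -1.70, -4.85 and -2.98 (SE of the fit 0.37, n = 2 arrays each), that is, 3.26-fold lower at 3 h and 7.90-fold lower at 24 h. On both arrays of 8 h the MAA signal missed the background flag (not well above background). Mean levels were 1.88 in the MAA and 6.73 in the control channel (log2). With the MAA signal raised to the lowest signal of the probes well above background on the same arrays, Omd was 10.1-fold lower. This fold is no strict bound, since the flag is set per spot and not by a fixed signal level. At 1 mM the ratios were -0.25 and -0.76 at 3 h, -0.43 and -0.71 at 8 h, and -0.37 and -0.70 at 24 h. These arrays too were all below 0, and at each time both lay above both arrays of 5 mM. With normexp background correction and an offset, which draws low signals together, the 5 mM means were -0.57, -1.58 and -1.47.

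Omd lies on mouse chromosome 13 between Aspn and Ogn, and Ecm2, which encodes a related leucine-rich repeat protein, lies on the other side of Aspn. The 250 bases before the annotated start of these 3 neighboring members are shown because they lie side by side and the ratios of Omd and Ogn were below 0 on all 6 arrays of 5 mM, as were those of Dcn, Fmod and Bgn, which lie on other chromosomes. The signal of Aspn was well above background in neither channel of the 3 h and 8 h arrays, and its ratios on both 24 h arrays of 5 mM were below 0. Sequences are from RefSeq (GRCm38.p6), written 5′ to 3′ on the strand of the gene. Capitals mark matches on either strand to TATAAA or CCAAT, and GGGCGG, which was also searched, had no match in them.
Omd (chr13:49582212-49582461, + strand): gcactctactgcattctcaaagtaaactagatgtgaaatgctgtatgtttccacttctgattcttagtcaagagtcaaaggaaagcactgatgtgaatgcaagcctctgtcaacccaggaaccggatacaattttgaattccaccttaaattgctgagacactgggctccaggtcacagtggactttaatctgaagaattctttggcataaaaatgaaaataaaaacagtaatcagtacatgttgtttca
Ogn (chr13:49607765-49608014, + strand): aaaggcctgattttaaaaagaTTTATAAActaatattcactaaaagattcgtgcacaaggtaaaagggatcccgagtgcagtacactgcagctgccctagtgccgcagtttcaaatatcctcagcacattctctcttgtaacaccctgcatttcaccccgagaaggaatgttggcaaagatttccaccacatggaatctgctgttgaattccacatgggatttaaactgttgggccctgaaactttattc
Aspn (chr13:49544193-49544442, + strand): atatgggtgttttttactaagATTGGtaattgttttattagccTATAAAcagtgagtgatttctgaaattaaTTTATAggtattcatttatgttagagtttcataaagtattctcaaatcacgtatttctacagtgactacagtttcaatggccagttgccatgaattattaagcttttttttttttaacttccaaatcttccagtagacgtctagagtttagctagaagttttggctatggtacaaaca
The Omd window held none of the 3 motifs. Ogn held TATAAA on both strands, in matches that overlap and begin 229 and 227 bases before the start. Aspn held it 207 bases before the start and, on the reverse strand, 178 bases before it, and also CCAAT on the reverse strand at 229. Of 32851 promoter windows of this length, 12.4% held TATAAA, 33.8% CCAAT and 32.7% GGGCGG. Windows of Kera, Fmod, Prelp, Bgn and Chad were searched too, and those of Lum and Dcn were not analysed here.

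**Figure D1:**
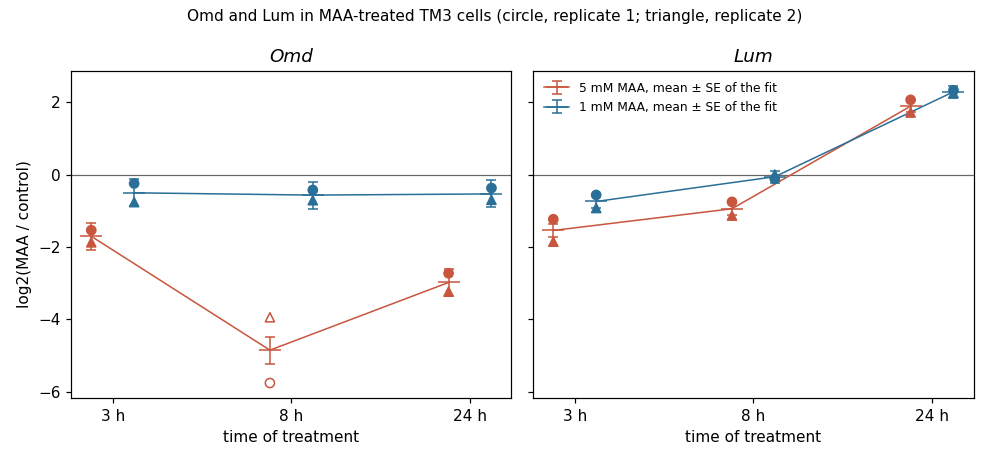
Log2 ratio of MAA to control signal (y axis) of Omd and Lum after 3, 8 and 24 h (x axis) of 5 mM (red) or 1 mM (blue) MAA. Circles and triangles are the arrays of replicate 1 and replicate 2, open symbols are arrays with the MAA signal not well above background, and dashes with bars are means ± SE of the fit. Omd lay below 0 on all 12 arrays, with a mean of -4.85 at 8 h of 5 mM, while the mean of Lum went from -1.54 at 3 h to 1.89 at 24 h of 5 mM and from -0.74 to 2.29 at 1 mM.

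Mimecan (Ogn), also called osteoglycin, was lowered by 5 mM MAA at 8 h and 24 h. Its log2 ratio at 5 mM was -0.19 and -0.32 at 3 h, -1.54 and -1.40 at 8 h, and -1.16 and -1.27 at 24 h. All 4 arrays of 8 h and 24 h were below both arrays of 3 h. Ogn fell by 1.47 at 8 h (SE 0.078, 2.77-fold, limma adjusted p = 2.02e-05) and by 1.22 at 24 h (2.32-fold, limma adjusted p = 4.66e-05), while its 3 h mean of -0.26 (limma adjusted p = 0.0495) was under the 2-fold threshold. At 1 mM the 6 arrays lay between -0.27 and 0.043, and Ogn passed the test at none of the 3 times. The 5 mM response was lower at 8 h than at 3 h by a log2 difference of -1.21 (SE 0.11, limma adjusted p = 0.00379) and lower at 24 h than at 3 h by -0.96 (limma adjusted p = 0.00186). It was also lower at 5 mM than at 1 mM, by -1.21 at 8 h (limma adjusted p = 0.00176) and by -1.19 at 24 h (limma adjusted p = 0.00182).

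Asporin (Aspn), which binds collagen, was near the detection limit. Its control level was well above background only at 24 h, where 5 mM gave ratios of -0.998 and -2.69, and 1 mM gave -0.40 and -0.58. Aspn was called down at 24 h of 5 mM (mean -1.85, SE 0.45, limma adjusted p = 0.0178). The MAA signal was not well above background on either of these arrays, with mean levels of 2.12 in the MAA and 3.96 in the control channel (log2). With the MAA signal raised as for Omd, Aspn was 1.59-fold lower, under the 2-fold threshold that the ratio itself passes. With normexp correction the ratio was -0.28 (limma adjusted p = 0.0333) and the call was lost, as it was with the slide as a block (-1.93, limma adjusted p = 0.021) and in a fit of 5 mM alone (-1.85, limma adjusted p = 0.0507). Without replicate 2 of this condition the ratio was -0.998 (limma adjusted p = 0.251) and the call was lost. It was also lost without any one array of 3 h at 5 mM or of 8 h or 24 h at 1 mM (ratio -1.85, limma adjusted p from 0.0263 to 0.0311). At 3 h and 8 h neither channel was well above background at either concentration, so no fold is given. Ecm2, the next gene on the chromosome, was called down at 24 h of 5 mM as well, with ratios of -2.02 and -2.66 (limma adjusted p = 0.0074), and had ratios of -1.08 and -1.28 at 1 mM (limma adjusted p = 0.168).

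Lumican (Lum), which keeps collagen fibrils thin and is needed for a clear cornea, had ratios of opposite sign at 3 h and 24 h at both concentrations. At 5 mM its log2 ratio was -1.23 and -1.85 at 3 h, -0.75 and -1.13 at 8 h, and 2.07 and 1.72 at 24 h. The 4 arrays of 3 h and 8 h were below 0 and both arrays of 24 h above it. At 1 mM the ratio was -0.56 and -0.92 at 3 h, -0.12 and 0.000298 at 8 h, and 2.33 and 2.25 at 24 h. The means at 3 h were -1.54 at 5 mM and -0.74 at 1 mM (SE 0.17, n = 2 arrays each), or 2.92-fold and 1.67-fold lower. The means at 24 h were 1.89 and 2.29, or 3.71-fold and 4.88-fold higher. At 24 h the difference of 5 mM minus 1 mM was -0.40 (SE 0.24), given without a test. With normexp correction 5 mM gave means of -0.39, -0.49 and 1.59, and 1 mM gave -0.19, 0.0031 and 1.501.

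Decorin (Dcn), the neighbor of Lum on chromosome 10 and a proteoglycan that binds collagen and TGF-beta, was below control at 5 mM and above it at 24 h of 1 mM. At 5 mM its log2 ratio was -0.27 and -0.86 at 3 h, -1.11 and -1.37 at 8 h, and -0.48 and -0.66 at 24 h. At 1 mM it was -0.10 and -0.40 at 3 h, -0.057 and -0.41 at 8 h, and 1.05 and 1.11 at 24 h. Of the 12 arrays, only those of 24 h at 1 mM were above 0. Dcn fell by 1.24 at 8 h of 5 mM (SE 0.16, 2.37-fold, limma adjusted p = 0.000749) and rose by 1.08 at 24 h of 1 mM (2.12-fold, limma adjusted p = 0.00611). Its 5 mM means of -0.56 at 3 h and -0.57 at 24 h (limma adjusted p = 0.0362 and 0.0278) were under 2-fold.

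The difference in Dcn between concentrations (5 mM minus 1 mM) was -1.65 at 24 h (SE 0.22, limma adjusted p = 0.00599) and -1.01 at 8 h (limma adjusted p = 0.0299). At 24 h the mean control level also differed, at 16.4 on the 5 mM and 15.9 on the 1 mM arrays (log2). The mean MAA levels were 15.8 and 17.0, and the part of the control channels in the difference was not tested. The 24 h difference missed the threshold without replicate 2 of 24 h at 5 mM (-1.56, limma adjusted p = 0.0521) or at 1 mM (-1.62, limma adjusted p = 0.0504). The 8 h difference missed it without any one of the 8 arrays of 8 h and 24 h (-0.83 to -1.18, limma adjusted p from 0.0528 to 0.172). At 3 h the difference was -0.31, with a 95% interval from -0.82 to 0.21. At 1 mM the response of Dcn was higher at 24 h than at 3 h by 1.34 (limma adjusted p = 0.0341), which was lost without any one array other than those of 3 h at 5 mM (1.18 to 1.49, limma adjusted p from 0.0559 to 0.186).

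A further probe, A_52_P252726, which the study annotated as Dcn but whose identifier RefSeq does not assign to it, stands outside these counts. Its 5 mM ratios were -4.78 and -2.28 at 3 h, -2.48 and -2.64 at 8 h, and -0.77 and 0.37 at 24 h, and its 3 h control levels on these arrays were 8.99 and 6.74. The SE of its means was 0.80, against 0.16 for the Dcn probe above.

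Keratocan (Kera), a corneal keratan sulfate proteoglycan on the far side of Lum, was well above background on 1 array of 8 h and 1 array of 24 h at 1 mM only. Its ratios ran from -1.34 to 1.17, with opposite signs on the arrays of a pair in 5 of the 6 conditions, and it passed no test.

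Fibromodulin (Fmod), a keratan sulfate proteoglycan that binds collagen in tendon and cartilage, was like Dcn below control at 5 mM and above it at 24 h of 1 mM. At 5 mM its log2 ratio was -0.077 and -0.52 at 3 h, -0.98 and -0.85 at 8 h, and -0.40 and -0.42 at 24 h. At 1 mM it was 0.041 and -0.12 at 3 h, -0.25 and -0.12 at 8 h, and 0.78 and 0.78 at 24 h. All arrays of 5 mM were below 0, and both arrays of 24 h at 1 mM were above all others. Fmod rose by 0.78 at 24 h of 1 mM (SE 0.10, 1.72-fold, limma adjusted p = 0.00435). Its 5 mM mean at 8 h was -0.92 (1.89-fold lower, limma adjusted p = 0.000451), under the 2-fold threshold.

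The difference in Fmod between concentrations (5 mM minus 1 mM) was -1.20 at 24 h (SE 0.15, limma adjusted p = 0.00439) and -0.73 at 8 h (limma adjusted p = 0.0223). The 8 h difference missed the threshold without any one of the 4 arrays of 8 h (-0.67 to -0.80, limma adjusted p from 0.0741 to 0.123). At 1 mM the response at 24 h was higher than at 3 h by 0.82 (limma adjusted p = 0.0435) and than at 8 h by 0.97 (limma adjusted p = 0.0454). Both were lost without any one array other than those of 3 h at 5 mM (0.74 to 0.90, limma adjusted p from 0.0723 to 0.206, and 0.90 to 1.03, limma adjusted p from 0.077 to 0.305).

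Biglycan (Bgn), the closest relative of decorin, had ratios near 0 except at 24 h of 1 mM. Its 6 ratios at 5 mM lay between -0.24 and -0.018, and those of 3 h and 8 h at 1 mM between -0.26 and 0.064. At 24 h of 1 mM both arrays read 0.51 (SE 0.094, 1.43-fold, limma adjusted p = 0.0145), above every other array and under the 1.5-fold threshold. The difference of 5 mM minus 1 mM was -0.58 at 24 h (95% interval -0.89 to -0.27, limma adjusted p = 0.0392). It missed the threshold without any one array of 8 h at 5 mM, of 3 h at 1 mM or of 24 h at either concentration (-0.55 to -0.60, limma adjusted p from 0.0537 to 0.174). At 8 h the difference was 0.0025, with a 95% interval from -0.31 to 0.31.

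PRELP, which links basement membranes to the collagen beneath them, read differently on its pair of probes. The probe with the higher mean signal, which stands for the gene in the counts, was A_51_P439846 (mean signal 538, against 385 for the second probe). On replicate 1 of 24 h at 1 mM it read 12.5 in the MAA and 12.7 in the control channel (log2), while its control level on the other arrays lay between 1.93 and 4.12, so that this array decides its mean signal. It was well above background in 4 MAA and 3 control channels, its mean ratios ran from -0.43 to 0.34, and it passed no test. The second probe, A_52_P486260, was well above background in both channels of all 12 arrays. Its ratios were above 0 on all 12 arrays, from 0.10 to 1.12, with means of 0.45, 0.77 and 0.64 at 5 mM and 0.66, 0.94 and 0.43 at 1 mM for 3, 8 and 24 h (SE 0.17). This probe passed at 3 h (1.59-fold, limma adjusted p = 0.0786) and 8 h (1.92-fold, limma adjusted p = 0.0233) of 1 mM, where the threshold was 1.5-fold, and at none of the 3 times of 5 mM. Chondroadherin (Chad), a cartilage protein that binds cells through an integrin, passed no test, with 12 ratios from -0.57 to 0.19.

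**Figure D2:**
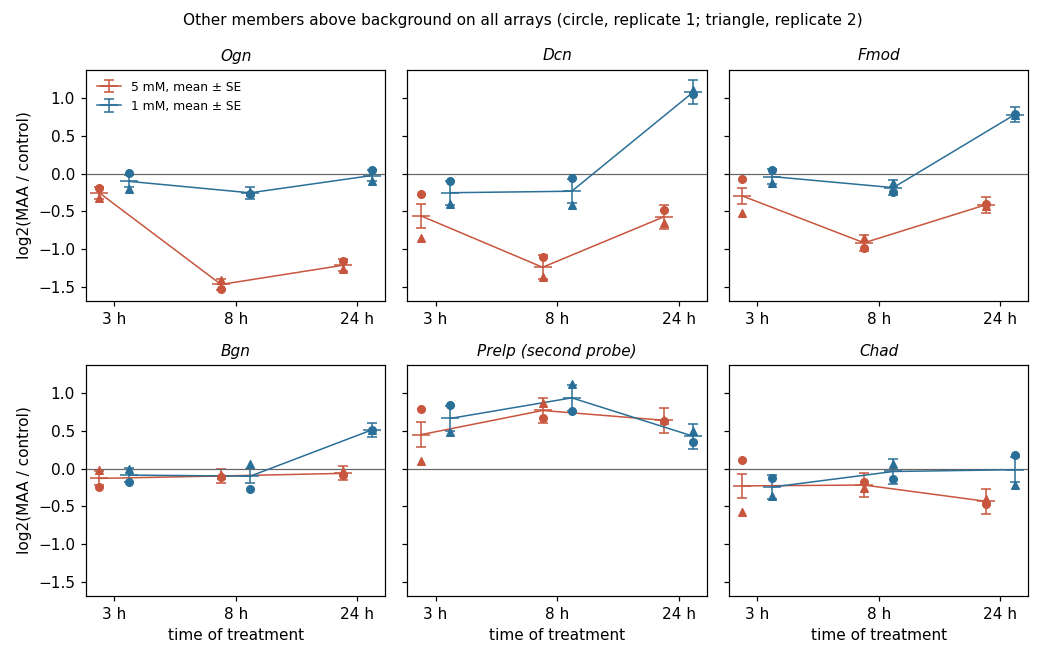
Log2 ratio of MAA to control signal (y axis) after 3, 8 and 24 h (x axis) of 5 mM (red) or 1 mM (blue) MAA for the 6 tested members with a probe above background on all arrays. Circles and triangles are the arrays of replicate 1 and replicate 2, and dashes with bars are means ± SE of the fit. At 24 h the means at 5 mM and 1 mM were -0.57 and 1.08 for Dcn, -0.41 and 0.78 for Fmod, and -1.22 and -0.026 for Ogn.

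Counted over the 8 tested members, a call needed an unadjusted limma p under 0.005 and, beyond that, a change above 2-fold for 5 mM and above 1.5-fold for 1 mM. At 3 h of 5 mM 0 of 8 were called by limma, against 2.02% of all probes called up and 1.74% called down, and 3 of 8 had an unadjusted p under 0.05, against 32.9% of all probes. At 8 h of 5 mM 2 of 8 were called down (Ogn and Dcn), against 2.49% of all probes, and 0 up, against 3.06%. At 24 h of 5 mM 2 of 8 were called down (Ogn and Aspn), against 1.77%, and 0 up, against 3.85%, and the Aspn call rests on an MAA signal not well above background. At 1 mM limma called 0 of 8 at 3 h (1.32% of all probes up, 0.627% down; 0 of 8 with an unadjusted p under 0.05, against 16.8%) and 0 of 8 at 8 h (1.72% up, 0.656% down; 2 of 8 with an unadjusted p under 0.05, against 18.8%). Prelp was counted there by its probe that was well above background in neither channel at 3 h and 8 h of 1 mM, and with its other probe, which was called up, 1 of 8 was called at each of these times. The 2 with an unadjusted p under 0.05 at 8 h of 1 mM were Ogn and Aspn, and Aspn was well above background in neither channel there. At 24 h of 1 mM 2 of 8 were called up (Dcn and Fmod), against 3.26%, and 0 down, against 1.41%. The median log2 ratio of the 8 was -0.24, -0.49 and -0.42 at 5 mM for 3, 8 and 24 h, where that of all probes was -0.10, -0.038 and 0.025. At 1 mM it was -0.094, -0.21 and 0.12, where that of all probes was 0.015, 0.023 and -0.075. The median at 8 h of 5 mM lies midway between Aspn (-0.56) and the counted Prelp probe (-0.43). Both were well above background in neither channel there, and the second Prelp probe had 0.77. The median at 24 h of 1 mM lies midway between Chad (-0.014) and Kera (0.25), and Kera was well above background on only 1 of these arrays.

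Differences between times or concentrations were called at a limma adjusted p under 0.05, in either direction. The 5 mM response differed between 8 h and 3 h for 1 of 8 members (Ogn), against 5.1% of all probes, and between 24 h and 3 h for 1 of 8 (Ogn), against 15.8%. Between 24 h and 8 h limma called 0 of 8, against 8.91%, and 2 of 8 had an unadjusted p under 0.05, against 21.9%. The 1 mM response differed by limma for 0 of 8 between 8 h and 3 h, against 0% of all probes, and 0 of 8 had an unadjusted p under 0.05, against 8.59%. It differed for 1 of 8 between 24 h and 8 h (Fmod), against 0.576%, and for 2 of 8 between 24 h and 3 h (Dcn and Fmod), against 1.85%. The concentrations differed by limma for 0 of 8 at 3 h, against 3.4%, with 0 of 8 at an unadjusted p under 0.05, against 15.6%. They differed for 3 of 8 at 8 h (Ogn, Dcn and Fmod), against 10.1%, and for 4 of 8 at 24 h (Ogn, Dcn, Fmod and Bgn), against 8.41%, and in all 7 the ratio was lower at 5 mM.

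The level of several members also moved with time in untreated cells. In control channels the Fmod level was 10.4 to 10.7 at 3 h, 11.7 to 11.8 at 8 h and 13.5 to 13.6 at 24 h (normalised log2 signal, 4 arrays per time), with no overlap between times. Fmod rose by 3.03 between 3 h and 24 h (SE 0.12, 8.16-fold, limma adjusted p = 0.00706) and by 1.25 between 3 h and 8 h (limma adjusted p = 0.0314). The level on the second Prelp probe was 4.72 to 5.14 at 3 h, 7.07 to 7.34 at 8 h and 9.32 to 9.44 at 24 h, again with no overlap, and it rose by 4.44 between 3 h and 24 h (SE 0.19, 21.7-fold, limma adjusted p = 0.00706). Ogn, Dcn and Bgn were higher at 24 h than at 3 h by 1.01, 1.19 and 0.87 (2.02-fold, 2.28-fold and 1.83-fold, limma adjusted p = 0.0078, 0.0105 and 0.00907), and none of these 3 passed between 3 h and 8 h. The Aspn level was 3.51 to 4.66 at 24 h, and its difference of 2.52 from 3 h (limma adjusted p = 0.00708) is set against signals not well above background. Chad and Kera passed in none of the 3 comparisons of times.

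By the probes that stand for the genes, 2 of 8 members differed in control level between 8 h and 3 h (Fmod and Aspn), against 12.9% of all probes, 5 of 8 between 24 h and 8 h, against 14%, and 5 of 8 between 24 h and 3 h, against 31.5%, all being higher at the later time. The Aspn signal was not well above background in any control channel of 3 h or 8 h, so that its difference between these times is one between background signals and its later ones are set against them. Prelp was counted here by its probe A_51_P439846, which passed in none of the 3 comparisons. Its second probe, outside these counts, passed in all 3. It rose by 2.26 between 3 h and 8 h (limma adjusted p = 0.0294) and by 2.19 between 8 h and 24 h (limma adjusted p = 0.0238), and its rise from 3 h to 24 h is given above. Its dependence on single averages was not examined. Each time had 2 values, the averages of the control channels with the same replicate number. Without any one of the 4 averages of 3 h and 24 h, 0 of 8 passed between 24 h and 3 h by limma, with an adjusted p from 0.0513 to 0.132 for the 5 and the direction of all 5 kept. Without any one of the 6 averages 0 of 8 passed in the other comparisons of times.

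Omd and Lum, given without a test, had mean control levels of 6.33 and 5.52 at 3 h, 6.74 and 6.04 at 8 h, and 7.22 and 7.004 at 24 h. The mean level of Omd in the 5 mM channel was 4.61, 1.88 and 4.23 at these times. That of Lum was 3.95, 4.99 and 8.90 in the 5 mM channel and 4.81, 6.08 and 9.29 in the 1 mM channel. The level of Lum was thus higher at each later time in treated and control cells alike. The mean level of Dcn was 14.4, 13.8 and 15.8 in the 5 mM channel and 14.7, 14.8 and 17.0 in the 1 mM channel.

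**Figure D3:**
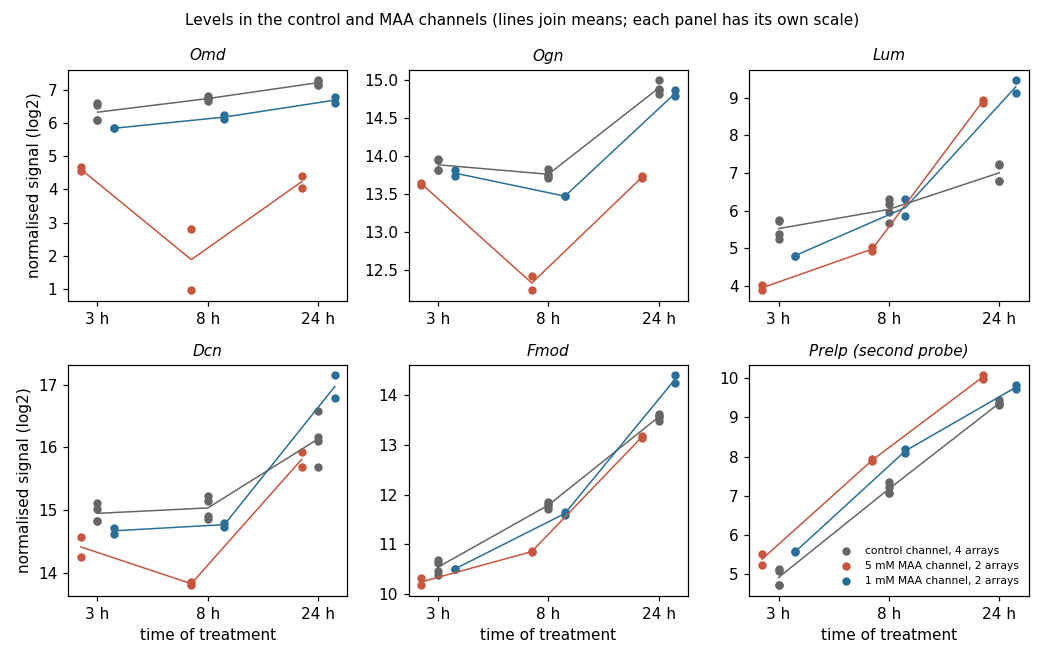
Normalised log2 signal (y axis, a separate scale in each panel) of 6 members after 3, 8 and 24 h (x axis) in control channels (gray, 4 arrays per time) and in the channels of 5 mM (red) and 1 mM (blue) MAA (2 arrays each), with lines through the means. Mean control levels went from 10.5 at 3 h to 13.6 at 24 h for Fmod and from 4.92 to 9.36 for the second Prelp probe, while the mean 5 mM level of Omd was 1.88 at 8 h.

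Of 8 relatives of the family, 7 had a probe, and the only calls among them were Ecm2 at 24 h of 5 mM, given above, and Epyc at 8 h of 5 mM, where neither channel of Epyc was well above background. Podnl1 had a ratio of 0.61 at 24 h of 5 mM (limma adjusted p = 0.00212), under 2-fold. The Podn ratios at 3 h of 5 mM were -3.11 and 3.05, opposite on the arrays with swapped dyes.

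Of 123 genes in 7 lists of relatives, other proteoglycans, chain synthesis, collagens, ligands and proteases, 3 were called up and 2 down at 3 h of 5 mM, 7 up and 9 down at 8 h, and 11 up and 11 down at 24 h. Of all probes, 2.02%, 3.06% and 3.85% were called up and 1.74%, 2.49% and 1.77% down at these times, so that the 3 h counts were close to the shares over all probes. These shares are the background of the counts of single lists too. The median ratio of these genes was -0.087, -0.058 and -0.019. At 1 mM 2 were called up and 0 down at 3 h, 5 up and 0 down at 8 h, and 10 up and 1 down at 24 h. The shares of all probes called at these times of 1 mM were 1.32%, 1.72% and 3.26% up and 0.627%, 0.656% and 1.41% down. Of 23 other proteoglycans (large, of basement membranes, of the cell surface or of granules), 20 had a named probe, while Vcan and Hspg2 had none. Of these 20, 1, 3 and 6 were called up at 3, 8 and 24 h of 5 mM and 0 down. They included Bcan at 24 h, which was well above background on neither array. Srgn, the core protein of the granule proteoglycan serglycin, had ratios of 2.67 and 1.60 at 3 h, 3.23 and 2.98 at 8 h, and 4.61 and 4.39 at 24 h (limma adjusted p = 0.00103, 0.00013 and 3.65e-05). Both arrays of each later time lay above both of the time before.

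Of 12 genes of keratan sulfate synthesis, the chains that Omd, Lum, Fmod and Kera can carry, Chst1 was the only one called at 5 mM, up at each time. Chst1, a sulfotransferase, had mean ratios of 1.16, 2.23 and 2.71 at 5 mM and 1.45, 1.41 and 2.58 at 1 mM for 3, 8 and 24 h (SE 0.060, limma adjusted p at most 0.000579). Of 17 genes of chondroitin and dermatan sulfate synthesis, the chains of Dcn and Bgn, 2 were called at 5 mM, both at 24 h. They were Csgalnact1, which adds the first sugar of the chondroitin repeat and fell by 1.54 (limma adjusted p = 0.00806), and the sulfotransferase gene Chst3, which rose by 1.08 (limma adjusted p = 0.00286).

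Of 26 genes of fibril collagens, their partners and crosslinking, 1 was called up and 0 down at 3 h of 5 mM, 3 up and 3 down at 8 h, and 3 up and 4 down at 24 h. Col11a1, a minor fibril collagen, rose by 1.22, 1.12 and 1.33 at these times (SE 0.10). Col3a1, a major fibril collagen, fell by 1.78 at 8 h (limma adjusted p = 6.77e-05), and Lox, a collagen crosslinking enzyme, fell by 1.40 at 24 h (limma adjusted p = 0.000314). Of 26 ligands and receptors of the family, 2, 4 and 2 were called down at the 3 times and 0 up. Ccn4, a matrix protein that binds decorin and biglycan, fell by 1.55 at 3 h (limma adjusted p = 2.93e-05), and Cd14, a receptor partner for biglycan, fell by 1.501 at 8 h (limma adjusted p = 1.31e-05) and fell by 1.64 at 24 h (limma adjusted p = 1.03e-05). Of 15 genes of proteases that cut these proteins or of proteinase enhancers (Pcolce and Pcolce2), 0, 1 and 3 were called down at 5 mM and 0 up. Mmp14 fell by 1.80 at 8 h (limma adjusted p = 0.000115). Mmp3 fell by 2.00 at 24 h of 5 mM (limma adjusted p = 8.04e-06) and rose by 1.53 at 24 h of 1 mM (limma adjusted p = 0.000161), a difference between concentrations that was not tested.

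Genes most like Lum and Omd were found by the Euclidean distance between mean log2 ratios over the 6 conditions, among 15115 candidate probes. For Lum they were Igfbp5, which binds insulin-like growth factors (distance 1.44), the oxidases Fmo2 (1.56) and Pipox (1.59), Pglyrp3 (1.93), a peptidoglycan recognition protein, and Frzb (1.95), a secreted Wnt antagonist. Igfbp5 had means of -2.07, -1.04 and 0.79 for 3, 8 and 24 h of 5 mM, and of -0.78, -0.18 and 1.55 for those of 1 mM. For Omd they were the transporter gene Abca9 (1.40), Angpt2 (2.38), a ligand of the endothelial receptor Tek, the transcription factor gene Cebpd (2.63), Rcbtb2 (2.72) and Tmem204 (2.75). The mean of Omd at 8 h of 5 mM rests on an MAA signal not well above background, so that the distances from Omd and their order are not exact. Abca9 had means of -1.69, -3.57 and -2.74 for 5 mM, and of -0.87, -0.87 and -0.37 for 1 mM. The conditions share arrays for all genes, so the distances are a description of these 12 arrays.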

How the data were processed

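Expression in mouse TM3 cells was measured on 12 two-color Agilent whole mouse genome arrays on 3 slides, 2 per condition with swapped dyes. The authors scanned the arrays and extracted spots with Agilent Feature Extraction 9.5.3.1; the deposited scanner files hold intensities per spot, of which the background-subtracted and dye-normalised processed signals were used, and the deposited table of log10 ratios holds the same arrays as processed by the authors. An array has 45018 spots, of which 1639 control spots and spots marked as outliers (median 136 per array) were left out. Groups were taken from the sample titles. A genome build is not given for the array data, while gene positions and promoter windows are those of RefSeq (GRCm38.p6).

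Spots of a probe were averaged as log2(MAA/control), and all 41174 probes were fitted with limma 3.58.1 in R 4.3.3, with 1 coefficient per condition (6 residual degrees of freedom) and Benjamini-Hochberg adjustment over all probes; calls and contrasts are as stated beside the counts. Control levels were Aquantile-normalised, and control channels with the same time and replicate number were averaged before a fit of time and replicate. 1 probe lacked a ratio on an array of 5 mM at 24 h. The precision is limited by the number of arrays: the median SE of a log2 ratio was 0.15.

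The gene column of the scanner files holds accessions for 22072 of the 22147 named probes, and these were turned into symbols through RefSeq. A gene was represented by its probe with the highest mean signal. Probes named besides the members were the called gene with the largest increase and decrease of each list at each time of 5 mM and the 5 nearest patterns to Lum and to Omd. Podnl1, Podn, Bcan, the ratios at 1 mM and the probe A_52_P252726 were chosen after their values were seen. The members and lists were chosen with earlier results of these data known. The script was tested on simulated data. Alternatives were another background correction, the deposited ratios, centring, a filter on dim probes, outlier spots kept, replicate and slide blocks, other call rules, each concentration alone, other ways to choose a probe, and leaving out each array.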

Additional observations from a re-analysis of the deposited data

Results flagged for a closer look

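Of 33 groups of 4 control channels, 3 had an array whose gap to the nearest made up most of the range of the group. Independent values would give about 1 in 20, but channels with the same replicate number share a dye and may share a pool. The Aspn control level at 8 h was 1.45 on 1 array, with the nearest at 2.97, all of them not well above background. The control level of the Prelp probe A_51_P439846 at 24 h was 12.7 on 1 array, with the nearest at 4.12. The Bgn control level at 3 h was 11.902 on 1 array, with the nearest at 11.865, a small gap in a group with an SD of only 0.020.

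The response differed between conditions, by limma contrasts with an adjusted p under 0.05, in 12 cases. For Ogn these were the differences of -1.21 between 8 h and 3 h and -0.96 between 24 h and 3 h of 5 mM, and of -1.21 at 8 h and -1.19 at 24 h between 5 mM and 1 mM. For Dcn they were 1.34 between 24 h and 3 h of 1 mM, and -1.01 at 8 h and -1.65 at 24 h between 5 mM and 1 mM. For Fmod they were 0.97 between 24 h and 8 h and 0.82 between 24 h and 3 h of 1 mM, and -0.73 at 8 h and -1.20 at 24 h between 5 mM and 1 mM. For Bgn the difference between 5 mM and 1 mM at 24 h was -0.58.

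The ratios of Lum were below 0 on both arrays of one condition and above 0 on both of another in 3 cases, with differences of 2.83 between 24 h and 8 h and 3.43 between 24 h and 3 h of 5 mM, and 3.03 between 24 h and 3 h of 1 mM. These differences were not tested.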

How the results depend on the processing

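Single ratios of the 8 tested members kept their side of the call in 1120 of 1134 recomputed values, 32 of them uncalled values that changed sign, with 11 calls lost and 3 gained. With normexp and loess, 1 member was called at 24 h of 5 mM, 2 differed between 8 h and 3 h and 1 between 24 h and 8 h of 5 mM, and 3, 10 and 8 list genes were called at 3, 8 and 24 h of 5 mM. With the deposited ratios, 2 members differed between 8 h and 3 h of 5 mM and 2 between 24 h and 8 h of 1 mM. With arrays centred on their median, 0 differed between 24 h and 8 h and 1 between 24 h and 3 h of 1 mM. Without dim probes, 1 was called at 24 h of 5 mM, 2 differed between 8 h and 3 h and 1 between 24 h and 8 h of 5 mM, and 3 between 24 h and 8 h of 1 mM. With the slide as a block, 1 was called at 24 h of 5 mM and 1 at 8 h of 1 mM (Kera, 0.95), and 0 differed between 24 h and 8 h of 1 mM. A call by over 2 SD left 1 at 24 h of 1 mM, a fit of each concentration alone 1 at 24 h of 5 mM, and the mean of all probes 0 between 24 h and 8 h of 1 mM. With the probe of the highest mean log2 signal, chosen after seeing the data, 1 was called at 3 h and 1 at 8 h of 1 mM (Prelp).

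The labels do not pair arrays by replicate number, although arrays with the same number share the dye of the MAA sample and some share a slide. The correlation of their deviations from the condition means lay between 0.075 and 0.515 and was over 0.1 in 14 of 15 pairs of conditions. With the replicate block, 3 members differed between 8 h and 3 h of 5 mM, with Dcn (limma adjusted p = 0.0301) and Fmod (0.0411) beside Ogn, 1 between 24 h and 8 h of 5 mM (Dcn, 0.0239), and 3 between 24 h and 8 h of 1 mM, and the counts called against control stayed within 1.5 times. For control levels between 8 h and 3 h, 4 members passed with each channel as a separate value, 1 with normexp, loess and Aquantile, and 1 with no replicate block.

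Leaving out one array at a time gave 1 to 2 members called at 24 h of 5 mM, and 5 to 8, 11 to 16 and 14 to 22 list genes at 3, 8 and 24 h of 5 mM. The number of members differing was 1 to 2 between 8 h and 3 h and 0 to 1 between 24 h and 8 h of 5 mM, 0 to 1 between 24 h and 8 h and 0 to 2 between 24 h and 3 h of 1 mM, and 1 to 3 at 8 h and 2 to 4 at 24 h between concentrations. For control levels it was 0 between 8 h and 3 h and between 24 h and 8 h, and 0 to 5 between 24 h and 3 h. These fits have fewer residual degrees of freedom. The mean ratio of Lum at 8 h of 1 mM turned from -0.058 to 0.0031 with normexp and loess, to 0.0596 with the slide block, and lay between -0.117 and 0.000298 without either of its arrays, the latter without replicate 1; the cause was not tested for this or the other changed values.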
